A study of Mus musculus with 6 samples.

Results

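The circadian clock genes described here are the 10 genes Per1, Per2, Per3, Cry1, Cry2, Arntl, Clock, Nr1d1, Nr1d2 and Dbp, taken by symbol from the 16081 genes listed for every sample. All 10 were listed and all 10 had enough counts to be tested. RNA-seq was performed on Lewis cells, a mouse lung carcinoma line, in 3 samples kept for 24 hours with the vehicle DMSO and 3 samples kept for 24 hours with SD70, an inhibitor of the histone lysine demethylase KDM4C. Nothing else distinguished the groups in the labels, no SD70 dose is stated for this experiment, and no step that sets the clocks of the cells to a common phase is given in the sources used here. The methods describe the study's experiments in general as independently repeated. The labels do not say whether the 3 samples of a group came from separate cultures, so the p-values measure the spread between these samples, which may be technical. With a single time of collection, the level of each transcript was measured, and neither the phase nor the amplitude of a rhythm.

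The mammalian clock is a feedback loop of transcription that runs in most cells, cultured lines included. CLOCK and BMAL1, the product of Arntl, bind E-box elements together and drive the Per and Cry genes, whose proteins return to the nucleus and repress that pair. A second loop is formed by the nuclear receptors REV-ERB alpha and REV-ERB beta, encoded by Nr1d1 and Nr1d2, which repress Arntl and compete for the same elements with the activating ROR receptors. Dbp encodes an activator that binds D-box elements and is a classic output of the loop.

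Library totals were between 15276744 and 17060424 counts, and intervals below cover these depths and the spread of the 3 samples per group. Kdm4c, the gene of the inhibited enzyme, had 753 ± 34.6 normalized counts in DMSO samples and 765 ± 34.2 in SD70 samples (SD, n = 3 each). Its log2 ratio of SD70 to DMSO, written log2FC from here on, was 0.02 (adjusted p = 0.769, edgeR). The inhibitor acts on the protein, so this level does not check the treatment. Of 5 epithelial markers, Krt8 gave nearly all of the summed counts, 4019 to 4228 with DMSO and 2414 to 2916 with SD70, while Epcam, Cdh1 and Krt19 never exceeded 1 count. Of the lung epithelial markers, Sftpc had at most 1 count and Napsa between 65 and 85. The 6 listed immune markers summed to 273 to 285 counts with DMSO and 189 to 218 with SD70, most of them from Cd68, and Ptprc had at most 2 counts in any sample. The 5 fibroblast markers summed to 3426 to 3506 and 3243 to 3381 counts, and the 4 endothelial markers to 58 to 69 and 63 to 71, with DMSO and SD70. Among the fibroblast markers, Pdgfra went from 1750 to 1848 counts down to 767 to 914, and Pdgfrb from 566 to 578 up to 1394 to 1632. The part of these markers in the results below was not tested.

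At an adjusted p under 0.01 in edgeR's quasi-likelihood test, 3 of the 10 clock genes rose with SD70 (Nr1d2, Cry2 and Arntl), 2 fell (Nr1d1 and Per3) and 5 did not pass (Per1, Per2, Cry1, Clock and Dbp). Over the whole transcriptome, 49.9% of the 11552 genes tested passed the same threshold, 25.8% higher and 24.2% lower. The share of clock genes that passed was therefore close to the background. When a log2FC of at least 1 in size was required too, 0 of the 10 clock genes were called, against 5.90% of all genes. The median size of the log2FC was 0.44 over the clock genes and 0.25 over all genes tested. Because the clock genes were chosen with earlier results of these data known, this difference is a description and not a test. The SD70 and DMSO samples did not overlap in 7 of the 10 clock genes, and in 64.4% of all genes. Of the 5 clock genes that passed, Nr1d1 and Nr1d2 had the largest log2FC in size. In bulk RNA, a change in the share of cells that express a gene and a change in its RNA per cell cannot be told apart.

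**Figure D1:**
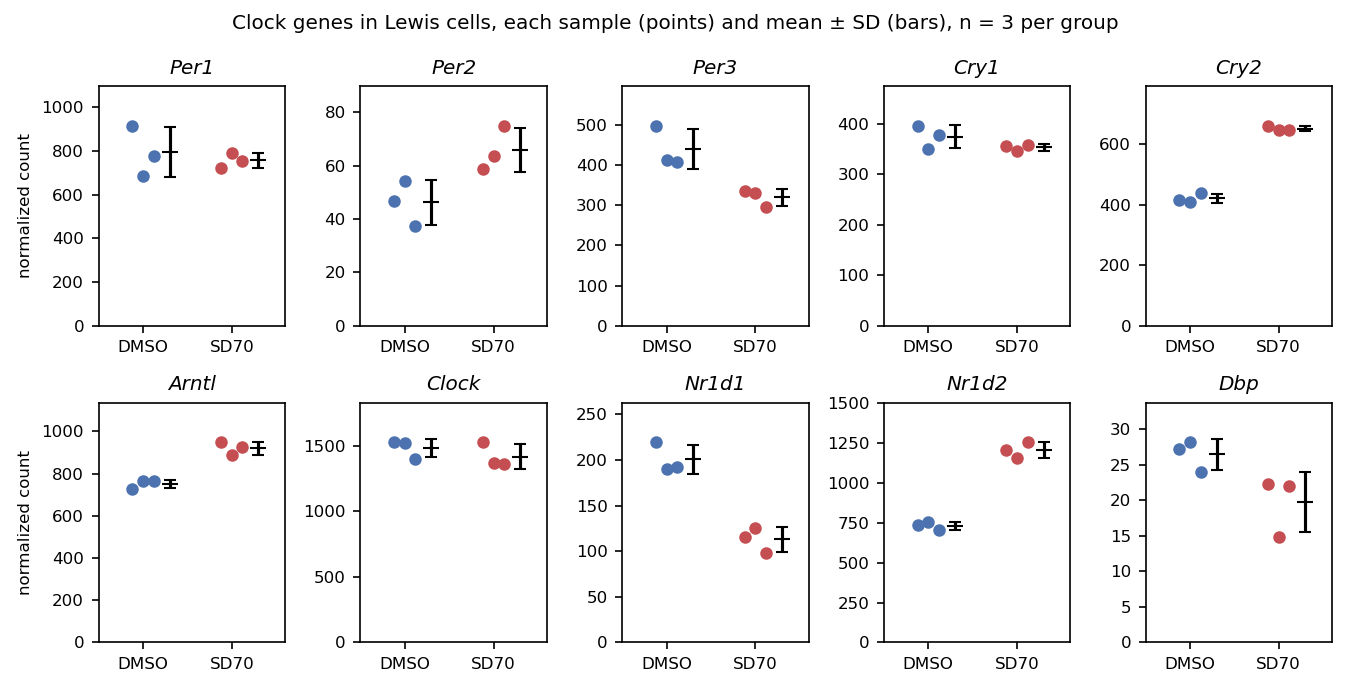
Normalized counts of the 10 clock genes in each sample. Points are samples, bars beside them are the mean ± SD of 3 samples, and each panel starts at 0. The groups stand apart for Per2, Per3, Cry2, Arntl, Nr1d1, Nr1d2 and Dbp and overlap for Per1, Cry1 and Clock.

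Levels between genes were compared on the FPKM scale, which is per transcript length. With DMSO, Arntl stood highest at 16.8 ± 0.406 FPKM (SD, n = 3). Per1, Nr1d2, Clock and Cry1 followed between 8.62 and 12.28 FPKM, and in that order each overlapped its neighbour. Cry2 (6.73 FPKM), Nr1d1 (4.72 FPKM), Per3 (3.68 FPKM) and Dbp (1.2 FPKM) were each separated from the next gene in the order, and Per2 was lowest at 0.530 ± 0.0819 FPKM. Per1 had the highest FPKM of the period genes, between 15.5 and 23.6 times that of Per2 in the DMSO samples. With SD70, Arntl remained highest at 20.1 ± 0.691 FPKM. Nr1d2 stood second at 16.1 FPKM, where it had overlapped Per1 and Clock with DMSO, and Cry2 at 10.2 FPKM lay above Cry1 at 8.27 FPKM. The ranges of Cry2 and Per1, of Per1 and Clock, of Per3 and Nr1d1, and of Dbp and Per2 overlapped with SD70.

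**Figure D2:**
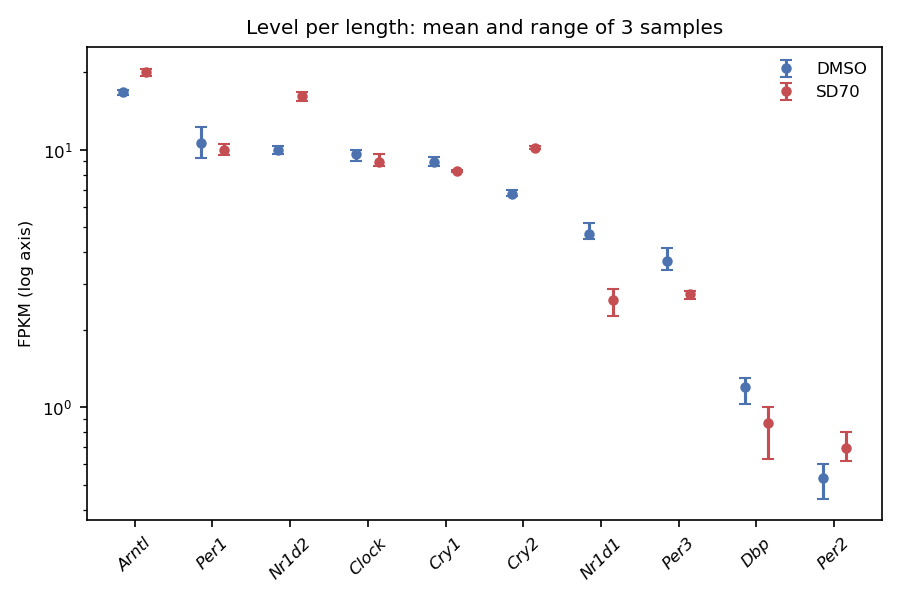
FPKM of the clock genes with DMSO and SD70 on a log axis, ordered by the DMSO mean. Points are means and bars the range of 3 samples. Nr1d2 and Cry2 stand higher with SD70 and Nr1d1 and Per3 lower, while Arntl is at the top of both groups.

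The REV-ERB pair moved in opposite directions. Nr1d1 (NCBI Gene 217166, GRCm38.p6 chr11:98767932-98775377) had 219, 190 and 193 normalized counts in DMSO samples 1, 2 and 3, and 116, 125 and 97.9 in SD70 samples 1, 2 and 3. Every SD70 sample lay below every DMSO sample. Nr1d1 fell to 0.564 times its DMSO level, log2FC = -0.83 (standard error, s.e., 0.117, adjusted p = 2.255e-07, edgeR), and 4.48% of the genes tested had a lower value. Nr1d2 (NCBI Gene 353187, chr14:18204056-18239106), which encodes the related repressor REV-ERB beta, had 734, 752 and 705 normalized counts in DMSO samples and 1209, 1157 and 1253 in SD70 samples. Every SD70 sample was above the DMSO samples. Nr1d2 rose 1.65-fold, log2FC = 0.72 (s.e. 0.0597, adjusted p = 1.324e-12, edgeR). The ratio of the FPKM values of Nr1d1 and Nr1d2 within a sample, which is free of library scaling, was 0.515, 0.435 and 0.469 with DMSO and 0.165, 0.186 and 0.134 with SD70. With SD70 it was 0.340 times its DMSO value, the largest of the 7 changes in ratio computed (p = 0.1 in an exact two-sided permutation test, which 3 against 3 samples cannot go below, and 0.117 adjusted over the 7 ratios).

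Nr1d1 shares 1075 bases with Thra, the thyroid hormone receptor alpha gene on the opposite strand, and 4 of the 6 deposited counts of Nr1d1 were not whole numbers. Thra also fell, from 570 ± 27.4 to 289 ± 2.75 normalized counts, each the mean ± SD of 3 samples, with log2FC -0.98 (adjusted p = 3.051e-13, edgeR). No strand setting is given in the sources used here, so reads from the shared stretch cannot be told apart, and the part of Thra in the value of Nr1d1 was not tested. Nr1d2 overlaps no other gene in the RefSeq annotation, nor do Per1 and Cry1, while Per2, Cry2, Arntl and Clock share sequence only with lncRNA or pseudogene entries.

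Among the period genes, which encode the PER proteins of the repressor complex, Per3 fell, and Per1 and Per2 did not pass the test. Per3 (NCBI Gene 18628, chr4:150997018-151044707) had 497, 413 and 409 normalized counts in DMSO samples and 335, 330 and 296 in SD70 samples. All SD70 samples were lower than all DMSO samples, and DMSO sample 1 was the highest. The log2FC of Per3 was -0.45 (s.e. 0.0851, adjusted p = 2.335e-05, edgeR). Uts2, whose annotated span overlaps that of Per3, had at most 1 count in any sample.

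Per1 (NCBI Gene 18626, chr11:69095108-69109965) had 914, 687 and 779 normalized counts in DMSO samples and 724, 793 and 756 in SD70 samples, and the groups overlapped. Its log2FC of -0.07 had a 95% confidence interval from -0.23 to 0.10 (adjusted p = 0.492, edgeR), and without DMSO sample 1, the highest, the value was 0.05. Per2 (NCBI Gene 18627, chr1:91415977-91459351), the lowest of the 10 in FPKM, had 46.8, 54.4 and 37.4 normalized counts in DMSO samples and 58.9, 63.6 and 74.8 in SD70 samples. Its samples did not overlap, and its log2FC of 0.51 (95% confidence interval from 0.13 to 0.88, adjusted p = 0.0172, edgeR) did not pass the threshold of 0.01. The value was 0.15 on log2(FPKM + 1) and 0.34 on log2(FPKM + 0.1). A constant added to FPKM understates changes of low genes, but FPKM and counts also differed without it. The log2 ratio of Per1 to Per2 changed by -0.48 on FPKM and by -0.58 on counts, with no constant added. The FPKM ratio of Per1 to Per3 was 2.96, 2.66 and 3.04 with DMSO and 3.39, 3.72 and 3.82 with SD70, with all SD70 samples above (p = 0.1 in the exact permutation test, 0.117 adjusted). The ratio of Per1 to Per2 overlapped between groups (p = 0.2 in the exact permutation test).

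Of the cryptochromes, the partners of the PER proteins in repressing CLOCK and BMAL1, Cry2 rose and Cry1 did not pass. Cry2 (NCBI Gene 12953, chr2:92403646-92434085) had 417, 411 and 438 normalized counts in DMSO samples and 661, 648 and 646 in SD70 samples. Replicates were close within both groups, and the groups lay far apart. Cry2 rose 1.54-fold, log2FC = 0.63 (s.e. 0.0695, adjusted p = 1.49e-09, edgeR). Cry1 (NCBI Gene 12952, chr10:85131700-85185054) had 396, 351 and 378 normalized counts in DMSO samples and 355, 346 and 359 in SD70 samples, and its groups overlapped. Its log2FC of -0.09 did not pass (95% confidence interval from -0.25 to 0.07, adjusted p = 0.360, edgeR). On the FPKM scale, Cry1 was above Cry2 in every DMSO sample and below it in every SD70 sample. The FPKM ratio of Cry1 to Cry2 was 1.41, 1.31 and 1.26 with DMSO and 0.793, 0.812 and 0.831 with SD70 (p = 0.1 in the exact permutation test, 0.117 adjusted).

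Of the activators, Arntl rose by a small amount and Clock did not pass. Arntl (NCBI Gene 11865, chr7:113178471-113314126) had 729, 763 and 763 normalized counts in DMSO samples and 948, 887 and 927 in SD70 samples, without overlap. Its rise of 1.22-fold, log2FC = 0.29 (s.e. 0.0608, adjusted p = 1.004e-04, edgeR), was the smallest among the clock genes that passed. Clock (NCBI Gene 12753, chr5:76209868-76305603) had 1526, 1524 and 1401 normalized counts in DMSO samples and 1526, 1368 and 1359 in SD70 samples. SD70 samples 2 and 3 lay below all DMSO samples, while SD70 sample 1 was close to DMSO samples 1 and 2. The log2FC of -0.06 had a 95% confidence interval from -0.18 to 0.05 (adjusted p = 0.343, edgeR). The FPKM ratio of Clock to Arntl was 0.609, 0.581 and 0.531 with DMSO and 0.465, 0.449 and 0.425 with SD70, lower in all SD70 samples (p = 0.1 in the exact permutation test, 0.117 adjusted). The ratio of the repressor gene Nr1d1 to its target Arntl was between 0.263 and 0.317 with DMSO and between 0.111 and 0.149 with SD70.

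Dbp (NCBI Gene 13170, chr7:45705100-45710203), the output gene, was covered by few reads. The DMSO libraries held 28.44, 28.82 and 24.74 deposited counts, and the SD70 libraries 22.03, 15.44 and 20.2. The SD70 samples all lay below the DMSO samples, and the log2FC of -0.43 had a 95% confidence interval from -0.96 to 0.11 (adjusted p = 0.160, edgeR), and it did not pass. Without SD70 sample 2, the lowest, the value was -0.25. None of its 6 counts was whole, and Dbp shares 741 bases with Sphk2, a sphingosine kinase gene, which rose (log2FC 0.42, adjusted p = 1.305e-04, edgeR). The part of Sphk2 in the value of Dbp was not tested. The FPKM ratio of Dbp to Arntl was 0.0773, 0.0763 and 0.0607 with DMSO and 0.0484, 0.0326 and 0.0478 with SD70, without overlap (p = 0.1 in the exact permutation test, 0.117 adjusted).

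**Figure D3:**
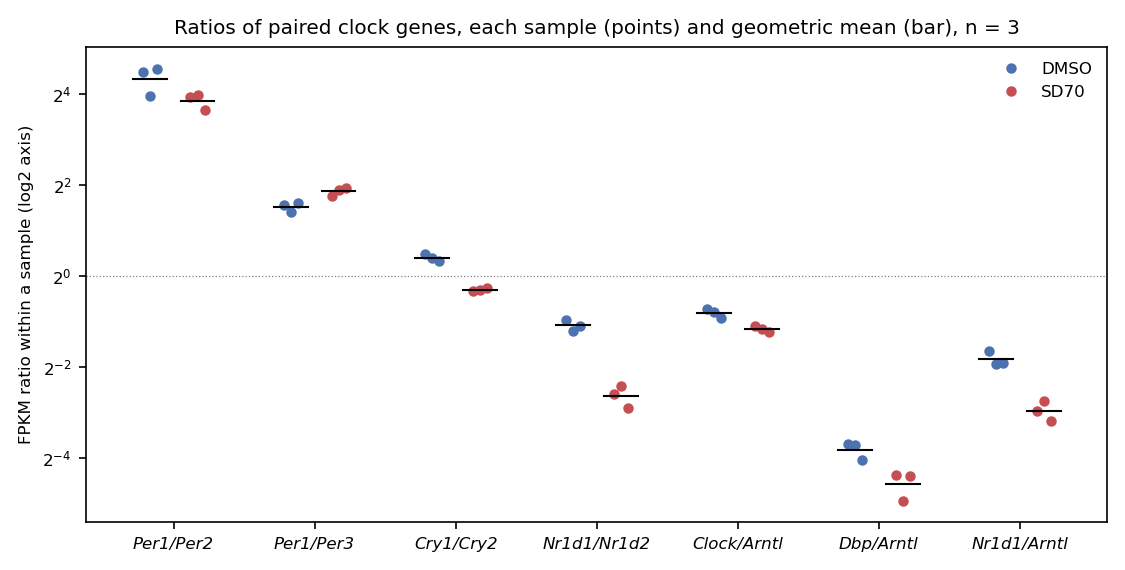
Ratios of the FPKM values of paired clock genes within each sample, on a log2 axis. Points are samples and bars the geometric mean of 3. The Cry1/Cry2 ratio lies above 1 with DMSO and below 1 with SD70, and Nr1d1/Nr1d2 shows the widest gap between groups.

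The promoters of the clock genes were searched for the elements through which the loops are wired, to show which of the genes hold them close to a start. RefSeq sequences of GRCm38.p6 from 250 bases before to 50 after each annotated start matched 9 of the 10 genes, with 13 starts, and Per2 was not matched. Both strands were searched for the E-box CACGTG, the D-box TTATGTAA, the core TAGGTCA shared by REV-ERB and ROR receptors and the cyclic AMP response element TGACGTCA, and no matches in these promoters overlapped. The E-box was found in Per1 and Cry1, 2 of 13 promoters, against 7.15% of 32851 promoters in the same table. The D-box was found in Per3 alone, where it occurred at 2 positions, and in 0.938% of all promoters. The receptor core was found at 1 start of Arntl, and in 2.61% of all. The cyclic AMP response element was found in 0 of the 13, and in 1.79% of all. The windows below run 5′ to 3′ along the gene, with the element in capitals.

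Per1 (chr11:69098771-69098800, plus strand, E-box from -166): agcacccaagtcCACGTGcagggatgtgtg

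Cry1 (chr10:85185097-85185126, minus strand, E-box from -60): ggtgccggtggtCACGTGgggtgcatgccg

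Per3 (chr4:151044852-151044881, minus strand, D-box from -205): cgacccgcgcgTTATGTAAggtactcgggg

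Per3 (chr4:151044805-151044834, minus strand, D-box from -158): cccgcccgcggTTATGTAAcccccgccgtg

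Arntl (chr7:113207530-113207558, plus strand, receptor core from 31): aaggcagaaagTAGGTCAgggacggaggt

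Positions are counted from the annotated start, with negative values before it. Of the clock genes, Per1 and Cry1, the 2 with an E-box in this window, did not pass the test, Per3 with its D-boxes fell, and Arntl with the receptor core rose. The other clock factors described below, searched in the same way, did not follow these directions. Among those with an E-box, Ciart rose while Bhlhe41 and Tef fell, and Timeless with a D-box rose. Nfil3, with the receptor core, rose. A match of letters is a description of the window and not a measured binding site, and elements outside the window were not searched.

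Of 8 other clock factors that were tested, 3 rose (Ciart, Nfil3 and Timeless) and 4 fell at an adjusted p under 0.01. Among all genes, 25.8% were higher and 24.2% lower. Most of the 8, though not Timeless, are listed as transcription factors or repressors of transcription. A log2FC of 1 or more in size was reached by 4 of them, against 5.90% of all genes. The median size of the log2FC was 0.84, against 0.25 over all genes, and 4 of the 8 had a smaller change than Nr1d1, Nr1d2 or Cry2. This list and those below were chosen with earlier results of these data known. Their shares and medians therefore describe the lists and do not test them. Ciart, which encodes the CLOCK and BMAL1 repressor CHRONO, rose from 26.1 ± 2.61 to 99.2 ± 14.1 normalized counts, each the mean ± SD of 3 samples, with log2FC 1.92 (s.e. 0.186, adjusted p = 6.721e-11, edgeR). Nfil3, a repressor that binds the D-box in competition with DBP, rose from 553 ± 37.4 to 1589 ± 110 (log2FC 1.52, adjusted p = 2.132e-20, edgeR). Bhlhe41 and Bhlhe40 encode DEC2 and DEC1, which bind E-boxes as repressors, and both fell. Bhlhe41 went from 1200.0 ± 64.0 to 469.8 ± 37.3 normalized counts (log2FC -1.35, adjusted p = 1.657e-18, edgeR). Bhlhe40 went from 868 ± 70.4 to 384 ± 70.2 (log2FC -1.17, adjusted p = 1.225e-07, edgeR).

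**Figure D4:**
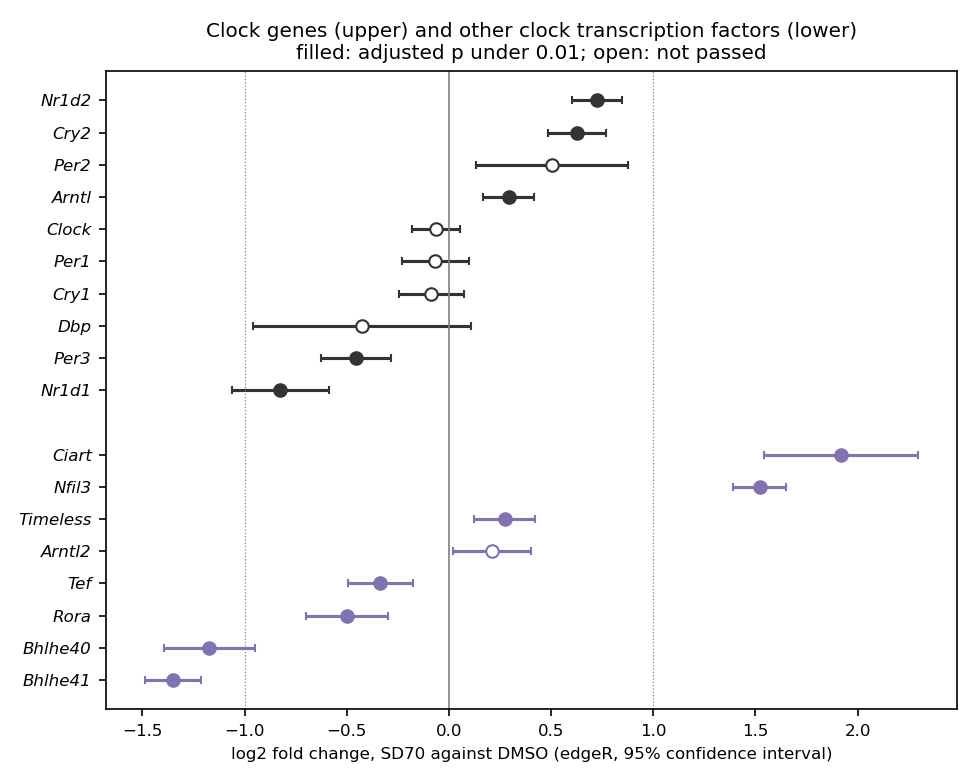
Log2FC values of the clock genes (upper) and of the other clock factors (lower), SD70 against DMSO, with 95% confidence intervals. Filled points passed at an adjusted p under 0.01 and dotted lines mark a log2FC of -1 and 1. All 10 clock genes have estimates between the dotted lines, while Ciart, Nfil3, Bhlhe40 and Bhlhe41 lie outside them.

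Of 15 enzymes and subunits that set the stability of clock proteins, 2 rose and 2 fell, a smaller share than the 49.9% of all genes that passed. Their median size of the log2FC was 0.17, against 0.25 over all genes. Siah2, a ubiquitin ligase that acts on REV-ERB alpha, rose from 510 ± 35.3 to 946 ± 73.6 normalized counts, each the mean ± SD of 3 samples, with log2FC 0.89 (adjusted p = 3.227e-13, edgeR). Gsk3b, a kinase of several clock proteins, rose with log2FC 0.57 (adjusted p = 2.169e-11, edgeR). Prkaa1, the AMP-activated kinase subunit, fell by 0.22 on the log2 scale (adjusted p = 7.42e-04, edgeR), and Btrc, a ubiquitin ligase subunit for PER proteins, fell by 0.25 (adjusted p = 0.00273, edgeR). The casein kinase genes Csnk1d (log2FC -0.03) and Csnk1e (-0.17) did not pass. For Csnk1d the counts and FPKM differed. Its normalized counts overlapped between groups, while its FPKM was 56.44 ± 1.73 with DMSO and 48.35 ± 0.465 with SD70, without overlap.

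Of 11 chromatin partners of clock factors, 3 rose and 1 fell, again a smaller share than the 49.9% among all genes, and the median size of the log2FC was 0.0968. Sirt1, a deacetylase that binds CLOCK, rose from 539 ± 26.6 to 799 ± 40.4 normalized counts, each the mean ± SD of 3 samples, with log2FC 0.57 (adjusted p = 6.064e-09, edgeR). Crebbp, a histone acetyltransferase, had 0.30 (adjusted p = 0.001299, edgeR) and Wdr5, a subunit of histone methyltransferase complexes, 0.29 (adjusted p = 5.347e-05, edgeR), both higher. Hdac3, the deacetylase recruited by REV-ERB, fell by 0.20 on the log2 scale (adjusted p = 0.005151, edgeR), although its samples overlapped between groups. Of 9 genes that carry signals to the Per promoters, 4 rose and 5 did not pass, against 49.9% of all genes that passed and 25.8% that were higher, with a median size of the log2FC of 0.12. Hsf1, the heat shock factor, had the largest log2FC, 0.36 (adjusted p = 1.287e-05, edgeR). Crem, Sik1 and Nr3c1, the last encoding the glucocorticoid receptor, had log2FC values of 0.31, 0.22 and 0.20. Crebbp, Hdac3, Btrc, Crem, Sik1 and Nr3c1 did not pass in some of the other fits, with log2FC of the same sign in each.

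Of 12 genes listed as clock-controlled outputs, 5 rose and 5 fell, against 25.8% higher and 24.2% lower among all genes. Tsc22d3, which is also a glucocorticoid-induced gene, rose from 551 ± 33.0 to 2435 ± 119 normalized counts, each the mean ± SD of 3 samples, with log2FC 2.14 (adjusted p = 1.942e-25, edgeR). Gpcpd1, a phosphodiesterase of glycerophosphocholine, rose with log2FC 1.85 (adjusted p = 1.873e-24, edgeR). Cdkn1a, the cell cycle inhibitor p21, fell by 1.39 on the log2 scale (adjusted p = 1.029e-15, edgeR). Elovl3, a fatty acid elongase and a known REV-ERB alpha target in liver, was near 0 in DMSO samples, at 2, 6 and 3 counts, and had 33, 44 and 56 in SD70 samples. Its log2FC of 3.65 (adjusted p = 1.602e-10, edgeR) depended on the scale and was 1.34 at the lowest of the other fits. Over all 55 genes of these lists that were tested, 17 rose, 12 fell and 26 did not pass, with a median log2FC of 0.05 against -0.0043 over all genes. The share that passed was near the 49.9% of all genes, and in limma the lists had 13 higher and 14 lower on log2(FPKM + 1) and 13 of each on log2(FPKM + 0.1). Over all genes that passed, the higher share was also smaller in limma, 47.2% on both scales against 51.6% in edgeR.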

How the data were processed

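For each of 6 samples the authors aligned BGISEQ-500 reads to GRCm38.p6 with HISAT and deposited a table per sample. The authors deposited an expected count per gene, not normalized, and an FPKM value, scaled by gene length and library size. The unit FPKM was inferred from the values, since the header does not name it. The submitters' processing notes also name StringTie 1.3.3b and the build mm8, with no role. The counting tool and strand setting are not given in the sources used here.

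Expected counts were rounded, filtered by filterByExpr (11552 of 16081 genes kept), scaled by TMM (factors 0.984 to 1.02) and tested with edgeR 4.0.16 (glmQLFit, robust, and glmQLFTest) in R 4.3.3, with Benjamini-Hochberg adjustment over all genes tested. A gene passed at an adjusted p under 0.01. Normalized counts are scaled to the mean effective library size. Standard errors came from the quasi-likelihood F statistic. The 7 ratios of FPKM values were compared by exact permutation tests (scipy 1.17.1). Alternatives used DESeq2 1.42.0 and limma 3.58.1. The tests were checked on simulated data in which few genes changed, equally in both directions. That check does not cover data in which 49.9% of the genes pass, as here. Within groups, libraries differed by more than sampling noise (chi-square per gene 2.08 to 4.78), so all were kept.

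The members and lists were chosen with earlier results of these data known. Named were the 10 members, Kdm4c and up to 4 genes per list with the largest absolute log2 fold change among those that passed. Genes that overlap members, and Csnk1d and Csnk1e, fall outside this rule and were named after their values were seen. One gene of the lists is not reported here and was left out of their counts.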

Additional observations from a re-analysis of the deposited data

How the results depend on the processing

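The 5 clock genes that passed did so under all 13 other fits (DESeq2 size factors, library totals, no filter, the replicate block, DESeq2, limma on log2(FPKM + 1) and log2(FPKM + 0.1), and each sample left out), with log2FC from -0.90 to -0.67 for Nr1d1, 0.64 to 0.75 for Nr1d2, 0.53 to 0.65 for Cry2, -0.51 to -0.32 for Per3 and 0.25 to 0.32 for Arntl. No other clock gene passed in these fits. At an adjusted p under 0.05, Per2 passed too, which made 4 clock genes higher, but not in DESeq2 (0.0622), limma (0.113 and 0.126), or edgeR without DMSO sample 3 (0.113) or SD70 sample 3 (0.0986). On log2(FPKM + 1) Dbp was under 0.05 (-0.24, adjusted p = 0.0437, limma), and without SD70 sample 2 it was -0.25 (0.472, edgeR). A log2FC of 1 or more in size left 0 higher and 0 lower clock genes, and 5 higher and 3 lower of 55 list genes, against 5.90% of all genes. Leaving out single samples moved Per1 from -0.17 to 0.05 (0.047 without DMSO sample 1) and Kdm4c from -0.0237 (without DMSO sample 2) to 0.0551 (without SD70 sample 2). Kdm4c was -0.015 with library totals alone, and -0.0071 and -0.0076 in limma. With the replicate block, Nr1d1 was -0.83 and Nr1d2 0.72, no call changed among the clock genes, Kdm4c and the list genes named by rule, and 5913 genes passed in all against 5767. Whether same numbers mark paired samples depended on the measure, which was chosen after the values were seen. Deviations of same-numbered samples had Spearman correlations of 0.12, -0.01 and 0.01 across 11552 genes, but Pearson correlations of 0.18, 0.25 and 0.16 across the 9624 genes with a mean count of at least 100, where other pairs had -0.19 to 0.01. The fit without the block was kept.

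Some small list changes did not pass with a sample fewer, with log2FC of the same sign, often about as large. Crebbp (0.30 with all samples) had 0.22 without DMSO sample 3 and 0.24 without SD70 sample 2. Hdac3 (-0.20) had -0.21 and -0.15 without DMSO samples 2 and 3, and -0.18 without SD70 sample 1 or 3. Btrc (-0.25) had -0.20 without DMSO sample 2 and -0.22 without SD70 sample 2. Crem (0.31) had 0.26 and 0.29 without DMSO samples 1 and 2, and 0.28 and 0.29 without SD70 samples 2 and 3. Sik1 (0.22) had 0.20 without DMSO sample 2 or 3 and 0.16 without SD70 sample 3. Nr3c1 (0.20) had 0.16 and 0.17 without DMSO samples 2 and 3. In limma on log2(FPKM + 1) and log2(FPKM + 0.1), Crebbp (0.17 and 0.20), Sik1 (0.17 and 0.18) and Nr3c1 (0.15 and 0.16) did not pass. Hdac3 (-0.20) and Crem (0.31) did not pass in DESeq2, nor Crem (0.27) with library totals alone. With library totals alone, 16 list genes were higher and 14 lower, and 45.4% of all genes that passed were higher, against 51.6%. Of the 10 clock genes, Dbp, with 15.44 to 28.82 counts per library, had the widest standard error, 0.262.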
